A study of Mus musculus with 16 samples.

Results

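The T cell receptor variable (V) genes expressed in repetitively activated TCF1+CD8+ T cells were examined by RNA-seq. They were the rows of the count table with the biotype TR_V_gene and a mean of at least 1 CPM (counts per 1000000 counts of the sample) over all 16 samples. This rule chose 57 of 144 such rows, out of 54532 genes in the table. The members were 38 of 108 Trav genes of the alpha chain locus and 19 of 22 Trbv genes of the beta chain locus. None of the 1 Trgv row, the 5 Trdv rows and the 8 rows with other names reached 1 CPM. The members were thus chosen by their mean level in these samples, and their levels are a description. The change between groups was not used by the rule and was tested in a fit of the whole table.

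The cells came from the spleens of C57BL/6J mice. Naive CD8+ T cells were activated over 4 days with anti-CD3/CD28 beads and low-dose IL-2 (85 U/ml), which gave antigen-experienced TCF1+CD8+ T cells, a model of stem-like T cells that was made in culture. All 4 groups shared this history. Cells were then kept for 1 h with or without prostaglandin E2 (PGE2, 100 ng/ml) and for a further 4 h in IL-2 alone (unstimulated) or in IL-2 with anti-CD3/CD28 beads at 1 bead per cell (stimulated). The groups of 4 samples were thus unstimulated untreated, unstimulated with PGE2, stimulated untreated and stimulated with PGE2, with replicates numbered 1 to 4. The mice were 6 to 12 weeks old, by the methods of the study for all its experiments. Whether the samples came from separate mice or cultures was not given in the sources used here. P-values then measure only the spread between these samples, which may be technical.

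The alpha and beta chains of the T cell receptor are each made from gene segments that are joined in the thymus. A V gene is joined to a J segment, and in the beta chain also to a D segment, and the joined exon is spliced to the constant region. Each T cell keeps the V genes it rearranged, so the usage of V genes in a population of cells describes its repertoire. The V exon encodes most of the variable domain, including the loops CDR1 and CDR2, and its end holds a conserved cysteine where CDR3 begins. The constant regions are encoded by Trac for the alpha chain and by Trbc1 and Trbc2 for the beta chain. CD3 chains carry the signal of the receptor into the cell.

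The Trav rows lay on chromosome 14 (chr14:52427928-53977678, GRCm38) and the Trbv rows on chromosome 6 (chr6:40891229-41558452). All 38 Trav members were on the plus strand, and 18 of 19 Trbv members were. In GENCODE release M21 each of the 57 members had 2 exons, a short leader exon and a V exon, with 328 to 364 coding bases in Trav and 335 to 372 in Trbv. None of the 57 members shared exon bases with another annotated gene. In every member an in-frame cysteine codon stood among the last 30 coding bases. The ends of the V exons are shown for the members that changed most, and for Trbv1, which did not pass the test in any of the pairwise comparisons. Each line gives the last 60 coding bases, from 5′ to 3′ on the coding strand, with the in-frame cysteine codons among the last 30 bases in capitals.
Trbv13-2: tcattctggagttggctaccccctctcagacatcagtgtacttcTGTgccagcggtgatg
Trbv16: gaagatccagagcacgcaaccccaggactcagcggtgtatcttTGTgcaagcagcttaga
Trbv20: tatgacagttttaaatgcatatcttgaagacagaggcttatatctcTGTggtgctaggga
Trbv12-2: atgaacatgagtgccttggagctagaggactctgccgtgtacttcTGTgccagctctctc
Trbv2: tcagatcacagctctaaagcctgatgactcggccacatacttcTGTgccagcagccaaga
Trbv1: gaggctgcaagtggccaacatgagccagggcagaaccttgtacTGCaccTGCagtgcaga
Trav3-3: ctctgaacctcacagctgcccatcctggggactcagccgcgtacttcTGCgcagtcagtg
Trav12-2: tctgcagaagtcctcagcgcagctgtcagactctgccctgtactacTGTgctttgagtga
Trav6-3: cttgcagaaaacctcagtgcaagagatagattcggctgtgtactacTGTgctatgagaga
Trav4-4-dv10: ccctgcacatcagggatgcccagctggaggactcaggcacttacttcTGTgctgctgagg
Trav8d-2: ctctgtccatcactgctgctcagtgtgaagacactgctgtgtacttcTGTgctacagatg

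Trbv13-2, Trbv16, Trbv20, Trbv12-2 and Trbv2 were the 5 members that fell the most with stimulation without PGE2. Of the Trav members shown, Trav3-3 and Trav8d-2 were the called ones that rose in that comparison, and Trav12-2 was the one that fell. Trav6-3, Trav4-4-dv10 and Trav8d-2 rose the most among those called with PGE2. Trbv13-2 was read from chr6:41121773-41121832, Trbv1 from chr6:40891826-40891885 and Trav3-3 from chr14:53666447-53666506, all in the V exon. In these last 30 bases, the 5 Trbv genes other than Trbv1 hold 1 in-frame TGT codon each, while Trbv1 holds 2 in-frame TGC codons. The sequences were taken from GENCODE M21 transcripts on GRCm38.

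The sums of counts were 22678254 to 42950763 per sample, with a median of 30211840.5. The 57 members took 0.0327% to 0.0541% of the counts, so a member at the lower limit of 1 CPM had few reads in a single sample. The labelled cell type was checked by its markers. Cd8a lay between 725 and 1129 CPM in the 16 samples. Cd4 stayed at or below 0.465 CPM, except in the 4 samples with replicate number 3, where it was 1.03 to 2.03 CPM. Each count of calls was therefore also taken without replicate number 3. Sox13 of gamma delta T cells, Zbtb16 of NKT cells and Lyz2 of myeloid cells were at most 0.204, 0.0313 and 0.0598 CPM. Other genes of these lists were higher. In the CD4 T cell list, Zbtb7b was at 9.08 to 37.3 CPM and Foxp3 at 2.88 to 9.23 CPM. Tcrg-C2 and Trdc of the gamma delta T cell list were at 1.56 to 5.76 and 1.18 to 2.60 CPM. Cd1d1 of the NKT cell list was at 4.08 to 25.1 CPM. Several list sums moved with stimulation. From unstimulated untreated to stimulated untreated samples, the 5 CD4 T cell markers went from 30 to 38.9 CPM to 18.5 to 24.9 CPM, the 7 gamma delta T cell markers from 7.41 to 11.1 CPM to 4.52 to 6.89 CPM and the 4 NKT cell markers from 14.1 to 17.8 CPM to 4.08 to 6.24 CPM. With PGE2 the same 3 lists went from 33.0 to 46.1, 6.55 to 7.72 and 15.5 to 25.1 CPM in unstimulated samples to 18 to 28.9, 3.91 to 5.98 and 7.92 to 9.69 CPM in stimulated samples. The CD4 T cell sum was mostly Zbtb7b, which went from 25.13 to 14.03 CPM on average without PGE2. Cd40lg of that list rose on average, from 0.383 to 2.693 CPM without PGE2 and from 0.466 to 2.498 CPM with PGE2. The NKT cell sum was nearly all Cd1d1, with Zbtb16, Klrb1c and Trav11 each at most 0.107 CPM. The NK cell list went from 13.1 to 24.1 CPM to 108 to 157 CPM without PGE2 and from 5.94 to 11.9 CPM to 36.8 to 119 CPM with PGE2. It was set by Eomes, with Ncr1 and Klra8 at 0 in all samples, and the myeloid list stayed at or below 0.489 CPM. The 6 CD8 T cell markers summed to 2977 to 4170 CPM in unstimulated and 2339 to 2709 CPM in stimulated samples. They moved in both directions. On average without PGE2, Tcf7 went from 1218 to 287 CPM, Cd8b1 from 726 to 511 CPM and Cd3e from 331 to 209 CPM. Cd8a went from 1026 to 1070 CPM, Cd5 from 152 to 194 CPM and Trac from 348 to 376 CPM. The part of other cells in the V gene results was not tested.

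Within a locus, usage was computed as the count divided by gene length, as a percentage of the sum over all V rows of that locus. This measure compares genes within a sample and does not depend on the scaling between samples. Usage is here a share of RNA, and the cells that carry each V gene were not counted. The 19 Trbv members held nearly all Trbv usage, since the 3 other Trbv rows had 0.0764% to 0.303% of it. In Trav the 70 rows below the limit had 17.3% to 24.9% of usage (median 20.3%). Trbv usage was uneven. Trbv13-2 was the most used gene in 12 of 16 samples and Trbv29 in the other 4, all of them stimulated. Over all samples, Trbv13-2 was followed on average by Trbv29, Trbv12-2, Trbv12-1, Trbv16, Trbv14, Trbv1 and Trbv3. In the unstimulated untreated group, Trbv13-2 had 14.4% ± 0.786 (SD, n = 4) of Trbv usage, Trbv29 had 10.2% ± 0.949, Trbv12-2 had 9.56% ± 0.627 and Trbv12-1 had 7.41% ± 0.289. These neighbours in the order did not all stand apart, as the ranges of Trbv29 (8.79% to 10.9%) and Trbv12-2 (9.06% to 10.5%) overlapped. The 8 most used Trbv genes together made up 67.8%, 68.5%, 66.9% and 66.7% of usage, on average, in the unstimulated untreated, unstimulated PGE2, stimulated untreated and stimulated PGE2 groups.

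**Figure D1:**
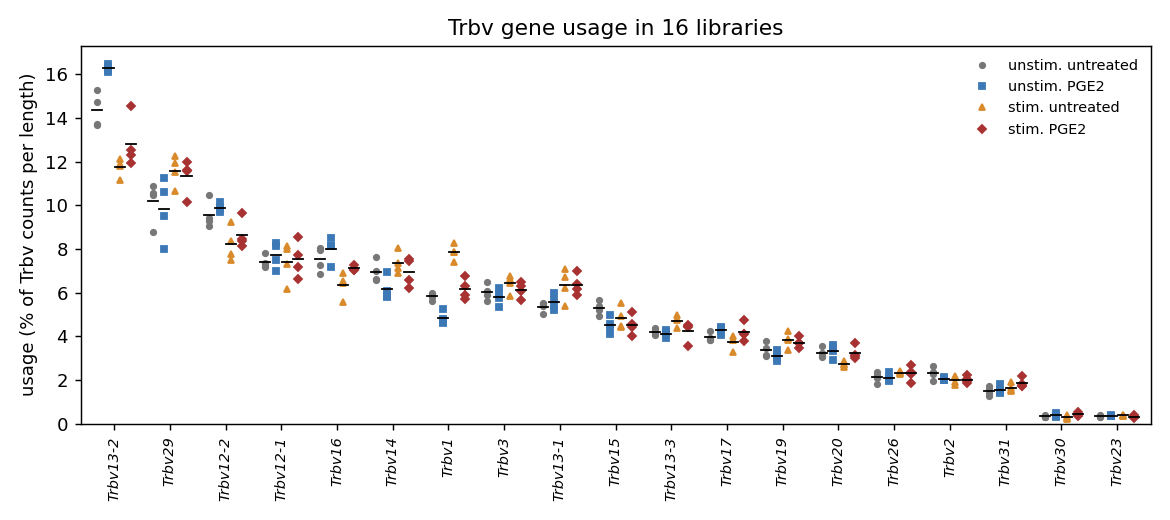
Usage of the 19 Trbv members in each of the 16 samples, as a percentage of Trbv V usage per gene length, with symbols and colours for the 4 groups and a black line for the mean. Trbv13-2 leads with 11.1% to 16.5%, and its unstimulated PGE2 samples (16.1% to 16.5%) stand above those of the other groups.

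Trav usage was spread over many more genes. Trav16n led with 5.95% ± 0.281 in the unstimulated untreated group, ahead of Trav13-1 with 5.02% ± 0.633, Trav16 with 4.44% ± 0.83, Trav12-2 with 3.45% ± 0.399 and Trav3-3 with 3.27% ± 0.404. Trav14n-3, Trav5-4 and Trav14-2 followed with 2.81%, 2.80% and 2.74% on average over all 16 samples, and did not differ beyond their spread. This order depended on the deposited gene lengths. Trav9-2, with a length of 563 for 340 coding bases, was above these genes in mean CPM (3.04) and below them in usage (1.99%). The 8 most used Trav genes together held 28.2% to 33.5% of usage. The effective number of V genes, the inverse Simpson index of usage, was 40.4 to 46.3 for Trav and 12.4 to 13.9 for Trbv. For Trbv it was 13.2 ± 0.200 in unstimulated untreated cells, 12.5 ± 0.0612 in unstimulated cells with PGE2, 13.7 ± 0.127 in stimulated untreated cells and 13.6 ± 0.255 in stimulated cells with PGE2 (SD, n = 4 each). The 2 unstimulated groups did not overlap, with the PGE2 samples at 12.4 to 12.6 and the untreated ones at 12.9 to 13.4. Both measures depend on how near-identical Trav genes were counted, which is described further on.

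**Figure D2:**
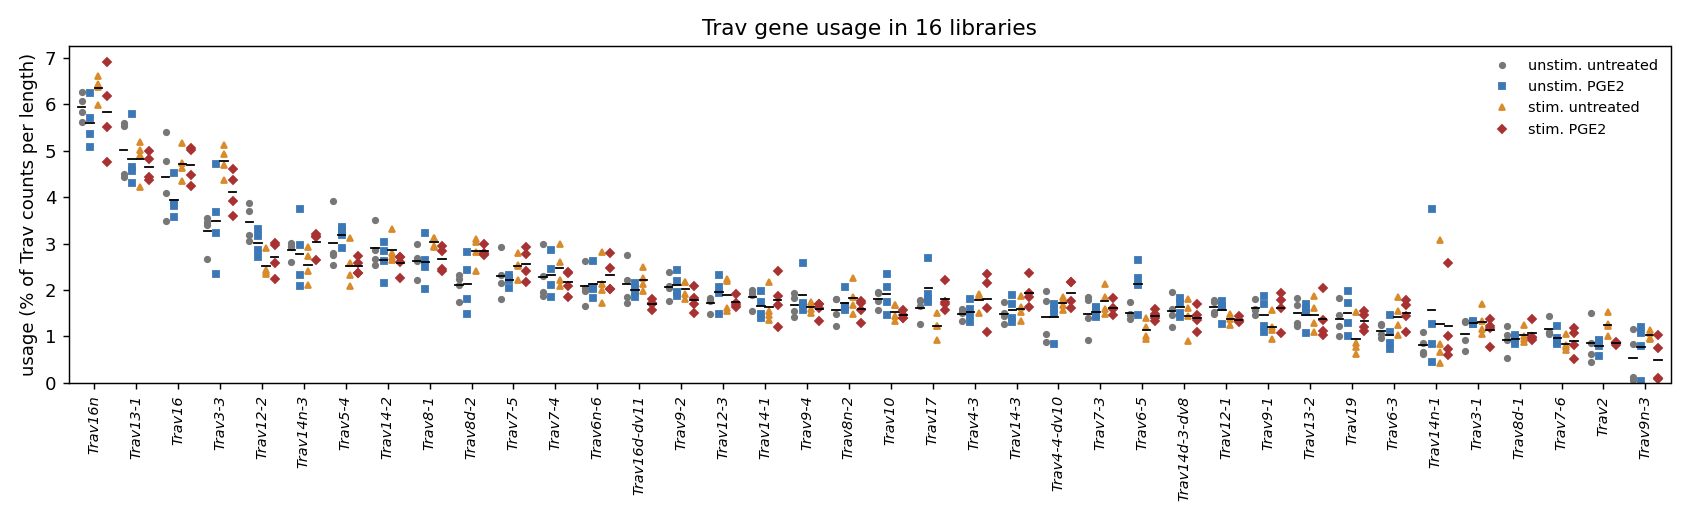
Usage of the 38 Trav members in each of the 16 samples, as a percentage of Trav V usage per gene length, with symbols and colours for the 4 groups and a black line for the mean. Trav16n is highest on average, and most members lie below the 2.74% of Trav14-2, the eighth in the order.

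The level of the whole locus was compared next, as the CPM summed over all V rows. The Trbv sum was 408, 415, 397 and 380 CPM in replicates 1 to 4 of unstimulated untreated cells, a mean of 400.0 ± 15.5 (SD, n = 4), and 250, 255, 254 and 271 CPM in stimulated untreated cells, a mean of 258 ± 9.36. All stimulated samples were below all unstimulated ones, at 0.644 of their mean. With PGE2 the sum was 441, 461, 436 and 411 CPM in unstimulated cells (437 ± 20.4) and 291, 296, 308 and 327 CPM in stimulated cells (305 ± 16.3), at 0.699 of the unstimulated mean, again without overlap. In a bulk sample, fewer cells of a type and less RNA per cell cannot be told apart. The Trav sum moved differently. It was 118, 114, 102 and 110 CPM in unstimulated untreated cells (111 ± 6.98), and 96.2, 107, 102 and 112 CPM in stimulated untreated cells (104 ± 6.80), and these groups overlapped. With PGE2 it was 97.8, 99.2, 91.9 and 95.5 CPM in unstimulated cells (96.1 ± 3.19) and 116, 113, 105 and 119 CPM in stimulated cells (113 ± 6.05), 1.18 times the unstimulated mean and without overlap.

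**Figure D3:**
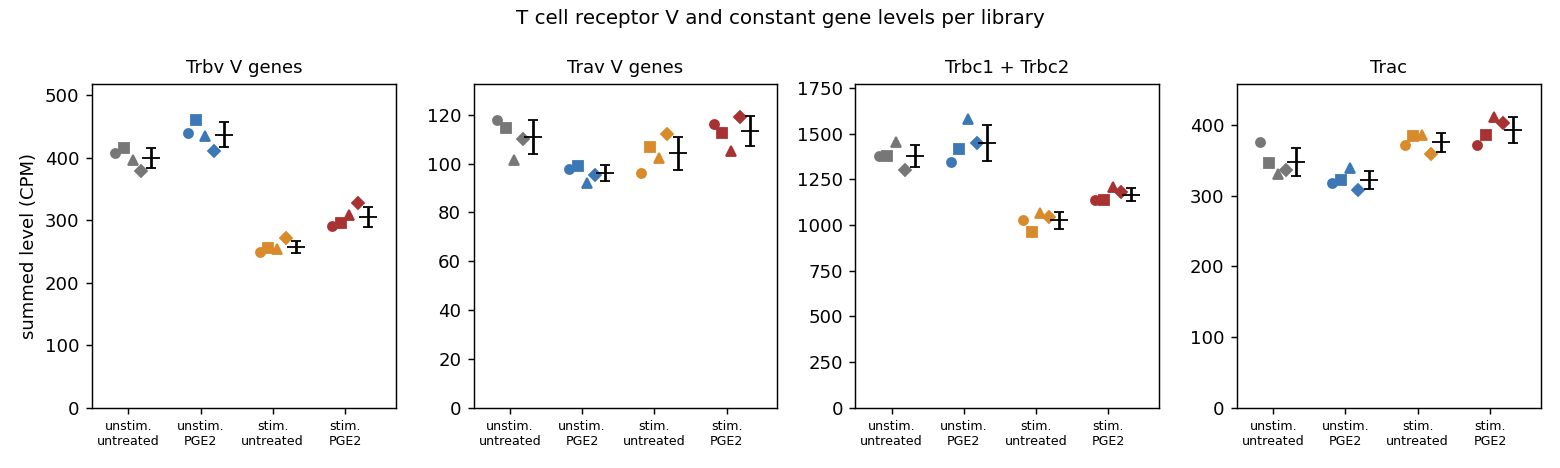
Summed CPM of the Trav and Trbv V rows and CPM of the constant region genes in the 4 groups, with 1 symbol per replicate number (circle, square, triangle and diamond for 1 to 4) and a black bar for the mean ± SD (n = 4). The Trbv sum lies between 380 and 461 CPM in unstimulated samples and between 250 and 327 CPM in stimulated samples.

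The ratio of the Trav sum to the Trbv sum needs no scaling between samples. It was 0.278 ± 0.0158 in unstimulated untreated cells, 0.220 ± 0.00925 in unstimulated cells with PGE2, 0.405 ± 0.0147 in stimulated untreated cells and 0.371 ± 0.0248 in stimulated cells with PGE2. The 8 stimulated samples (0.341 to 0.418) were all above the 8 unstimulated ones (0.211 to 0.290). In unstimulated cells, the PGE2 samples (0.211 to 0.232) were all below the untreated ones (0.256 to 0.290), while the stimulated groups overlapped. The constant regions were tested singly. Trac rose by a log2 fold change of 0.26 without PGE2 and 0.44 with PGE2 (adjusted p = 0.0114 and 0.000111, edgeR), and Trbc2 fell with log2 fold changes of -0.33 and -0.20 (adjusted p = 0.00324 and 0.0353, edgeR). In CPM, Trac without PGE2 was at 331 to 376 before and 359 to 386 after stimulation, 1.08 times the unstimulated mean, with overlap. With PGE2 it was 1.22 times that mean, without overlap. Trbc1 fell without PGE2 (-0.18, adjusted p = 0.0298, edgeR) and had a log2 fold change of -0.10 with PGE2 (adjusted p = 0.257, edgeR). The ratio of the Trbv sum to the Trbc1 and Trbc2 sum was 0.290, 0.303, 0.251 and 0.262 on average in the 4 groups in the above order. Without PGE2 it was lower in all stimulated than in all unstimulated samples, and with PGE2 the groups overlapped.

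Single members were then tested with edgeR's quasi-likelihood test on the counts, with TMM scaling and Benjamini-Hochberg adjustment over all genes tested. All 57 members passed the filter on low counts in each of the 5 comparisons. A call is an adjusted p below 0.05, and fold changes are on the TMM scale, while CPM values use the sum of counts alone. These fits had no replicate block, and results with a block are named as such.

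Stimulation without PGE2 lowered the Trbv members. Of the 19 Trbv members, 14 fell and none rose, beside 34.8% of all 14205 genes tested that fell and 31.7% that rose, or 66.5% in either direction. The log2 fold changes of all 19 were below 0, with a median of -0.42 against -0.03 over all genes. In CPM, 18 of 19 were lower in every stimulated sample than in every unstimulated one, beside 38.4% of all genes. Of the 38 Trav members, 2 rose and 1 fell, with a median log2 fold change of 0.13, and 26 of 38 were above 0. With scaling to the column totals alone, which moved the median of all genes to -0.18, the Trav median was -0.02 and 17 of 38 were above 0, while all 19 Trbv members stayed below 0. The direction of the Trav locus without PGE2 therefore depended on the scaling.

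Trbv13-2, the most used beta gene, fell the most. It was at 49.4, 54.0, 53.6 and 45.7 CPM in unstimulated untreated cells and 26.7, 26.6, 24.8 and 28.1 CPM in stimulated untreated cells, so the groups lay far apart. Its log2 fold change was -0.78 (SE 0.08, adjusted p = 3.70e-06, edgeR). Trbv16 was at 33.9, 29.3, 29.8 and 31.1 CPM before and 16.6, 17.1, 14.5 and 19.2 CPM after stimulation (log2 fold change -0.73, SE 0.10, adjusted p = 2.53e-05, edgeR). Trbv20, a less used gene, went in the same direction, from 10.8, 11.7, 10.7 and 11.6 CPM to 6.22, 5.72, 5.92 and 6.44 CPM (log2 fold change -0.73, SE 0.10, adjusted p = 4.65e-05, edgeR). These 3 genes had no value in common between the groups. Trbv12-2 (-0.71), Trbv2 (-0.69), Trbv15 (-0.62), Trbv17 (-0.58), Trbv12-1 (-0.49), Trbv14 (-0.42), Trbv3 (-0.40), Trbv26 (-0.35), Trbv13-3 (-0.32), Trbv19 (-0.31) and Trbv29 (-0.31) also fell, in log2 fold change. Of these 14 calls, 13 held whichever of the 8 libraries was left out, and that of Trbv26 held in 2 of the 8 fits, those without unstimulated untreated replicate 4 or stimulated untreated replicate 1. Trbv1 stood at the other end, with 26.1, 25.9, 24.2 and 24.5 CPM in unstimulated and 21.2, 22.7, 20.3 and 22.9 CPM in stimulated cells. Its CPM groups did not overlap, but on the TMM scale its log2 fold change was -0.06 (SE 0.08, adjusted p = 0.535, edgeR).

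Among the Trav members, Trav3-3 rose, from 4.45, 4.27, 2.92 and 4.03 CPM to 5.29, 5.35, 4.78 and 5.91 CPM (log2 fold change 0.60, SE 0.16, adjusted p = 0.0051, edgeR). All 4 stimulated samples were above all 4 unstimulated ones. Trav8d-2 rose from 2.34, 2.22, 1.52 and 2.02 CPM to 2.33, 2.78, 2.73 and 2.32 CPM (0.49, SE 0.19, adjusted p = 0.0385, edgeR), with overlapping groups. The call of Trav8d-2 did not hold in 6 of the 8 fits that left out 1 library, with log2 fold changes of 0.35 to 0.57 over all 8. The 6 libraries were the unstimulated untreated replicates 2, 3 and 4 and the stimulated untreated replicates 1, 2 and 3. Trav12-2 went the other way, from 4.94, 3.82, 4.11 and 3.84 CPM to 2.54, 3.36, 2.66 and 2.85 CPM (-0.40, adjusted p = 0.0454, edgeR), without overlap. This call held in 2 of 8 such fits, those without unstimulated untreated replicate 4 or stimulated untreated replicate 2, with adjusted p-values of up to 0.132 in the others. The call of Trav3-3 held in all 8.

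Stimulation with PGE2 lowered Trbv members as well. Of the 19 Trbv members, 10 fell and none rose, beside 31.7% of all 14507 genes that fell and 32.5% that rose (64.2% in either direction), and 16 of 19 did not overlap in CPM, beside 36% of all genes. The median log2 fold change over the 19 was -0.33, and that of all genes was 0.00. Of the 38 Trav members, 12 rose and none fell. The share that rose was close to that of all genes, and 5 of 38 were higher without overlap in CPM, beside 25% of all genes. Of the 38, 36 had a log2 fold change above 0, and the median was 0.32. The split depended on the scaling. Of the 57 members, 12 rose and 10 fell with TMM factors, 7 rose and 16 fell with upper-quartile factors, and 6 rose and 16 fell with column totals alone. In all 3, each of the 19 Trbv members was below 0. The share of all genes called was counted with TMM factors alone, so none stands beside the other counts.

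Trbv13-2 was again the member that fell the most. It was at 64.3, 65.9, 62.7 and 59.5 CPM in unstimulated cells with PGE2 and at 31.5, 32.5, 32.5 and 42.0 CPM in stimulated cells with PGE2. The highest stimulated value remained below the lowest unstimulated value, and the log2 fold change was -0.72 (SE 0.09, adjusted p = 3.24e-05, edgeR). Trbv12-2 was at 44.8, 45.4, 42.5 and 41.0 CPM before and 28.0, 24.8, 25.0 and 27.5 CPM after (-0.57, SE 0.09, adjusted p = 0.000155, edgeR), and Trbv16 fell with -0.55 (SE 0.08, adjusted p = 0.000191, edgeR). Trbv12-1 (-0.42), Trbv20 (-0.41), Trbv17 (-0.40), Trbv2 (-0.39), Trbv15 (-0.38), Trbv13-3 (-0.33) and Trbv3 (-0.30) fell too. Of these 10 calls, 9 held whichever library was left out, and Trbv13-3 was not called without unstimulated PGE2 replicate 2 (adjusted p = 0.0677, edgeR). Trbv1 was at 25.2, 23.2, 21.9 and 21.3 CPM before and 21.3, 20, 19.6 and 20.2 CPM after, with a log2 fold change of -0.02 (SE 0.09, adjusted p = 0.85, edgeR).

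The Trav members that rose the most lay at a few CPM or less, so few reads stand behind each value. Trav6-3 was at 0.716, 1.12, 1.38 and 0.831 CPM in unstimulated cells with PGE2 and at 1.31, 2.07, 1.82 and 1.76 CPM in stimulated cells with PGE2 (log2 fold change 0.93, SE 0.25, adjusted p = 0.00678, edgeR). The highest unstimulated value, of replicate 3, was above the lowest stimulated one. Trav4-4-dv10, a gene that can join to alpha and delta segments, was at 0.751, 1.39, 1.35 and 1.5 CPM before and 2.35, 2.27, 1.73 and 1.76 CPM after (0.86, SE 0.25, adjusted p = 0.0103, edgeR), without overlap. Trav8d-2 rose from 2.36, 2.08, 1.44 and 1.22 CPM to 3.03, 2.71, 2.52 and 2.84 CPM (0.80, SE 0.23, adjusted p = 0.0103, edgeR), also without overlap, and its call did not hold without replicate number 3 (0.72). Trav14-3 (0.71), Trav16 (0.65), Trav3-3 (0.65), Trav4-3 (0.64), Trav7-5 (0.61), Trav8d-1 (0.58), Trav6n-6 (0.53), Trav7-3 (0.48) and Trav16n (0.47) rose as well. Without replicate number 3 in both groups, 6 Trav members were called in place of 12. Of the 12 Trav calls, 5 held whichever library was left out, those of Trav6-3, Trav4-4-dv10, Trav8d-2, Trav16 and Trav7-5. Trav14-3 was not called without unstimulated PGE2 replicate 3 or stimulated PGE2 replicate 2, and Trav3-3 not without replicate 2 or 3 of the unstimulated or 1 or 2 of the stimulated PGE2 group. Trav16n, Trav6n-6, Trav4-3, Trav7-3 and Trav8d-1 lost their calls in 5, 5, 6, 7 and 7 of the 8 fits.

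**Figure D4:**
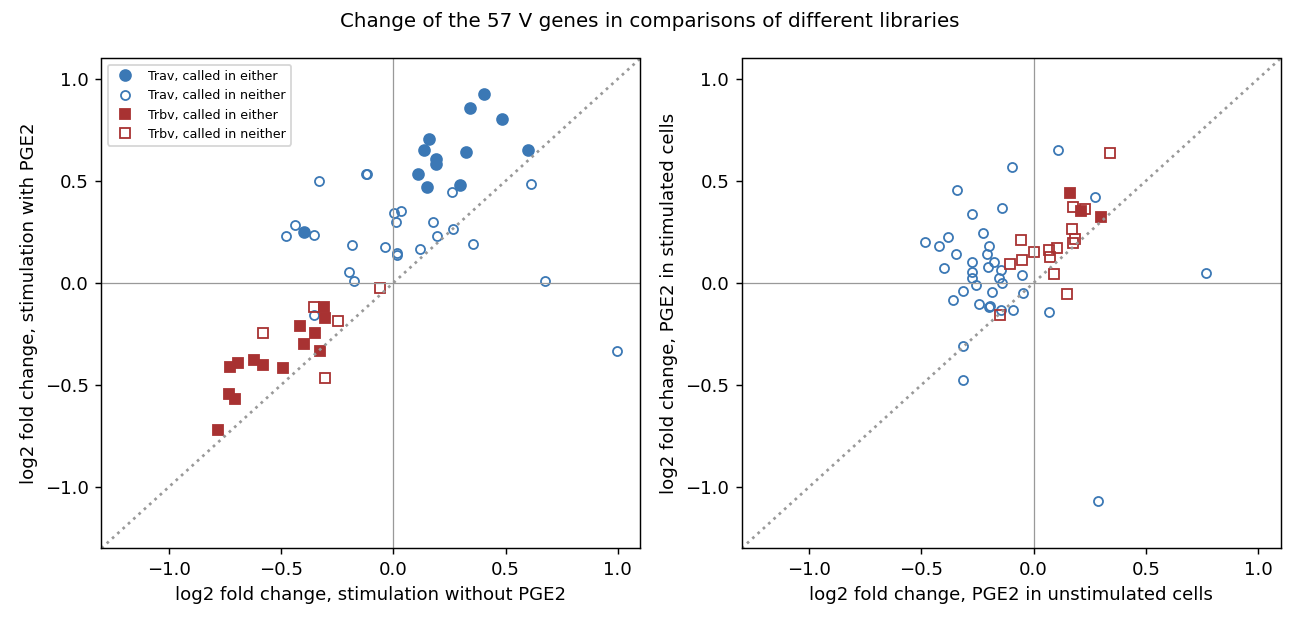
Log2 fold changes of the 38 Trav (blue circles) and 19 Trbv members (red squares), with PGE2 against without PGE2 for stimulation (left) and in stimulated against unstimulated cells for PGE2 (right), filled where called in either comparison and with a dotted line where both changes are equal. For stimulation all 19 Trbv members lie below 0 on both axes, with Trbv13-2 at -0.78 and -0.72, and 36 of 38 Trav members lie above 0 with PGE2.

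These 2 comparisons shared no samples. Across the 19 Trbv members, their log2 fold changes had a Pearson correlation of 0.80 and a Spearman correlation of 0.72, and across the 38 Trav members of 0.17 and 0.34. The points are genes of the same libraries and not independent replicates, and the Trav members had far fewer reads. Of the Trbv members, 10 were called in both, which was 10 of 14 without PGE2 and 10 of 10 with PGE2, and Trbv14, Trbv19, Trbv26 and Trbv29 were called in the comparison without PGE2 and not in the one with PGE2. Of the Trav members, Trav3-3 and Trav8d-2 were called in both, which was 2 of 3 and 2 of 12. Whether these genes responded unequally with and without PGE2 was tested by the interaction term, given below with the PGE2 comparisons. No member passed both the test and the fold change of at least 2 that the DEG rule of the study adds, in these or in the other comparisons without a replicate block, beside 23.2% of all genes with stimulation without PGE2, 22.1% with PGE2, 3.38% for PGE2 in unstimulated cells and 1.75% for PGE2 in stimulated cells.

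PGE2 had smaller effects on V genes. In unstimulated cells, 1 of 19 Trbv members rose, beside 28.4% of all 14505 genes in either direction and 12.9% that rose. No Trav member passed in the main edgeR fit, without a replicate block, or in DESeq2, and 2 had an unadjusted p below 0.05 in the main fit. The member that rose was Trbv13-2, with 49.4, 54.0, 53.6 and 45.7 CPM in untreated and 64.3, 65.9, 62.7 and 59.5 CPM in PGE2-treated cells. All treated samples were above all untreated ones (log2 fold change 0.30, SE 0.07, adjusted p = 0.00755, edgeR). The Trbv median was 0.15, with 15 of 19 above 0, and the Trav median was -0.20, with 33 of 38 below 0. Over all genes the median was -0.00. Leaving out unstimulated untreated replicate 1, unstimulated PGE2 replicate 1 or unstimulated PGE2 replicate 4 gave 3 calls each, and leaving out unstimulated untreated replicate 3 gave 2.

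Samples with the same replicate number deviated together in these 8 samples. The share of all genes called with a block was not counted, here or in the other comparisons. With the replicate number as a block, 10 members were called in place of 1. Of these, Trbv13-2 (log2 fold change 0.30, adjusted p = 1.34e-05, edgeR), Trbv17 (0.23), Trbv16 (0.21), Trbv12-1 (0.18), Trbv13-1 (0.18) and Trbv12-2 (0.18) rose. Trbv1 (-0.15), Trav16n (-0.32), Trav16 (-0.38) and Trav12-2 (-0.42) fell in the blocked fit. The log2 fold changes without the block were close to these, as for Trbv12-2 with 0.17 (adjusted p = 0.148, edgeR) and Trbv1 with -0.15 (adjusted p = 0.185, edgeR).

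In stimulated cells, 3 Trbv members rose with PGE2, beside 6.04% of all 13922 genes that rose, 3.8% that fell and 9.84% in either direction. No Trav member passed in the main edgeR fit, without a replicate block, or in DESeq2, and 2 had an unadjusted p below 0.05 in the main fit. Trbv20 was at 6.22, 5.72, 5.92 and 6.44 CPM in untreated and 7.82, 7.70, 8.39 and 10.5 CPM in treated cells (log2 fold change 0.44, SE 0.12, adjusted p = 0.041, edgeR). Trbv16 was at 16.6, 17.1, 14.5 and 19.2 CPM against 21.1, 21.5, 23.2 and 23.8 CPM (0.35, SE 0.09, adjusted p = 0.0326, edgeR). Trbv13-2 was at 26.7, 26.6, 24.8 and 28.1 CPM against 31.5, 32.5, 32.5 and 42.0 CPM (0.32, SE 0.09, adjusted p = 0.0471, edgeR). In each of these genes, every treated sample was above every untreated one, and 10 of 19 Trbv members were without overlap in this direction, beside 11% of all genes, and none was lower without overlap, beside 6.46% of all genes. The Trbv median was 0.20 with 17 of 19 above 0, and the Trav median was 0.05, beside -0.01 over all genes. These 3 calls stood close to the threshold. None was left without stimulated untreated replicate 1, 2 or 3, without stimulated PGE2 replicate 2, 3 or 4, or without replicate number 3 in both groups, and 1 was left without stimulated untreated replicate 4. The unadjusted p was below 0.05 for 9 of the 57 members in the fit of all 8 samples.

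With the replicate number as a block, 11 members were called in stimulated cells in place of 3. The share of all genes called with the block was not counted for this comparison either. The 10 that rose were Trbv20 (0.43), Trbv31 (0.37), Trbv17 (0.36), Trbv16 (0.36), Trbv13-2 (0.32), Trbv12-2 (0.27), Trbv12-1 (0.22), Trbv13-1 (0.20), Trbv29 (0.16) and Trav17 (0.65, adjusted p = 0.0148, edgeR). Trav17 was at 1.02, 1.13, 1.33 and 0.897 CPM in untreated and 1.78, 1.67, 2.05 and 1.64 CPM in treated cells, without overlap. The 1 that fell was Trav9n-3 (-1.31, adjusted p = 0.0481, edgeR), whose reads cannot be told from those of an identical copy, as described below. In stimulation without PGE2, the block gave 20 calls in place of 17, among them the same 17, and added Trbv13-1 (-0.25), Trbv31 (-0.35) and Trbv30 (-0.61).

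The 2 PGE2 comparisons shared no samples either. Across the 19 Trbv members their log2 fold changes had a Pearson correlation of 0.73 and a Spearman correlation of 0.76, and across the 38 Trav members of -0.11 and -0.13. The difference of the PGE2 effect between stimulated and unstimulated cells was tested as an interaction over all 16 samples. None of the 57 members passed, beside 0.749% of all 15096 genes (0.517% above 0 and 0.232% below 0), and DESeq2 also called none, while 3 members had an unadjusted p below 0.05. Of these, Trav12-2 had an interaction of 0.62 on the log2 scale (adjusted p = 0.29, edgeR), and the others were Trav14n-3 (0.62) and Trav9-1. The interaction was above 0 in 33 of 38 Trav members (median 0.29) and in 17 of 19 Trbv members (median 0.11), beside a median of 0.05 over all genes.

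In usage, Trbv1 moved against Trbv13-2. The share of Trbv1 in Trbv usage was 5.83% ± 0.156 in unstimulated untreated cells, 4.82% ± 0.300 with PGE2, 7.85% ± 0.341 in stimulated untreated cells and 6.16% ± 0.478 in stimulated cells with PGE2. No pair of groups that the design compares overlapped in this share. It was higher with stimulation by 2.02 percentage points without PGE2 and 1.34 with PGE2, and PGE2 changed it by -1.01 points in unstimulated and -1.68 points in stimulated cells. The share of Trbv13-2 was 14.4% ± 0.786, 16.3% ± 0.164, 11.7% ± 0.423 and 12.8% ± 1.16 in the same order of groups. It differed without overlap by -2.61 and -3.45 points with stimulation and by 1.93 points with PGE2 in unstimulated cells, and overlapped between the stimulated groups. As shares of 1 locus sum to a fixed total, a lower share of Trbv13-2 raises the others. The share of Trbv20 was different without overlap by -0.499 points with stimulation without PGE2. Other Trbv shares without overlap were those of Trbv20 and Trbv16, higher with PGE2 in stimulated cells by 0.507 and 0.750 points, and of Trbv12-2 and Trbv19 with stimulation under PGE2, which changed by -1.24 and 0.615 points.

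Few Trav shares differed without overlap. Trav3-3 rose from 3.27% ± 0.404 to 4.78% ± 0.327 of Trav usage with stimulation without PGE2, and its groups did not overlap. Trav8d-2 was also higher, by 0.737 points, and Trav12-2 and Trav12-1 were lower, by 0.941 and 0.254 points in size. With PGE2, stimulation changed Trav5-4 by -0.674 points and Trav16d-dv11 by -0.301 points. No Trav share was without overlap for PGE2 in unstimulated cells, and in stimulated cells those of Trav17 (0.596 points), Trav16d-dv11 (-0.521 points) and Trav2 (-0.397 points) were. For 30 of the 38 Trav members the shares overlapped in all 4 pairwise comparisons.

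The 108 Trav rows include copies of the same gene from repeated blocks of the locus, which carry the letters d and n in their names. The 34 d rows (4 members) held 11.2% to 14.8% of Trav usage, the 28 n rows (6 members) 18.4% to 22.4% and the 46 rows without a letter (28 members) 63.9% to 68.6%. How reads that match several copies were counted was not given in the sources used here, so values of near-identical genes are uncertain. To see where this applies, each transcript was divided into all windows of 100 bases, and the windows that no transcript of another annotated gene holds were counted as unique. All 19 Trbv members were unique in every window. In Trav, 9 of 38 members were unique throughout and 5 were unique in less than 50% of windows. Of these 5, Trav9n-3 and Trav14n-1 had no unique window. Trav8d-2 was fully unique, Trav12-2 was at 98.5%, Trav3-3 at 90.3%, Trav4-4-dv10 at 77.9% and Trav6-3 at 15.0%.

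The 3 Trav16 genes show how close the copies are. Trav16n and Trav16 differ at 4 of 301 bases (98.7% identity), Trav16n and Trav16d-dv11 at 3 (99.0%) and Trav16 and Trav16d-dv11 at 5 (98.3%). Each line gives the last 300 coding bases of the V exon, with the 6 positions that differ among the 3 in capitals.
Trav16n: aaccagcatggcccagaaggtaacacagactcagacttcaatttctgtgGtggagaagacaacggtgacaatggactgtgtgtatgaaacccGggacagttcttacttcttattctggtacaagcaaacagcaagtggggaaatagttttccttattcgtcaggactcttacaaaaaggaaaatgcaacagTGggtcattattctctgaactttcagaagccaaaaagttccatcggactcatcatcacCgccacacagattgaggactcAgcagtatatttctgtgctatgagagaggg
Trav16: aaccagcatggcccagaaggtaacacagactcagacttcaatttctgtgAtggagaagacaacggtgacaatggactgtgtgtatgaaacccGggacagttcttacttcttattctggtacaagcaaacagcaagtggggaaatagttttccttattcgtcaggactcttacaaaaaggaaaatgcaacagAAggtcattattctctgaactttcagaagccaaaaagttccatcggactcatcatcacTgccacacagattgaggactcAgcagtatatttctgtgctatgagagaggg
Trav16d-dv11: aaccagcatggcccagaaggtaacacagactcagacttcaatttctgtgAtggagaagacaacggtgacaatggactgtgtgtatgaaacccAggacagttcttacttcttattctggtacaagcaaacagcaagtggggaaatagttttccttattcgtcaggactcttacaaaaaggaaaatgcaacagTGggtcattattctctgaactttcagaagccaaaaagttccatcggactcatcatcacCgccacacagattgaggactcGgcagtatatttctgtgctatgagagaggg

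Trav16n was read from chr14:53351322-53351621, Trav16 from chr14:53743406-53743705 and Trav16d-dv11 from chr14:53047522-53047821. Their usage per length was unequal in part. In stimulated untreated cells, Trav16n had 5.98% to 6.62% of Trav usage, Trav16 had 4.36% to 5.16% and Trav16d-dv11 had 1.98% to 2.50%, and no sample of a gene reached the range of the next. In stimulated cells with PGE2 the ranges of Trav16n (4.77% to 6.92%) and Trav16 (4.25% to 5.06%) overlapped, and Trav16d-dv11 was below both with 1.56% to 1.80%.

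The Trbv13 genes differ more, and each of their windows is unique. Trbv13-1 and Trbv13-2 differ at 33 of 294 bases (88.8% identity), Trbv13-1 and Trbv13-3 at 41 (86.1%) and Trbv13-2 and Trbv13-3 at 24 (91.8%). Each line gives the last 150 coding bases, with the 35 positions that differ among the 3 in capitals.
Trbv13-1: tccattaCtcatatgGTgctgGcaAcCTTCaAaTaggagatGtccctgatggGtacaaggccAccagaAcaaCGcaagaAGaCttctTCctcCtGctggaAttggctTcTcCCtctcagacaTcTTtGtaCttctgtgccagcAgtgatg
Trbv13-2: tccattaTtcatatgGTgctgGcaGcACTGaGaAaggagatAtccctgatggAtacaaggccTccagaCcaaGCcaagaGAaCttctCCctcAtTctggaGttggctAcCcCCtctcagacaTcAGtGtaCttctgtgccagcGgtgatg
Trbv13-3: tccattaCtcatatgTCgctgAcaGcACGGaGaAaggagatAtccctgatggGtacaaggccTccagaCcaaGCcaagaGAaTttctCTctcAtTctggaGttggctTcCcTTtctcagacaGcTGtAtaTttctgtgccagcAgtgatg

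They were read from chr6:41116319-41116468, chr6:41121683-41121832 and chr6:41130436-41130585. With stimulation without PGE2, Trbv13-2 fell with a log2 fold change of -0.78 and Trbv13-3 with -0.32, while Trbv13-1 had -0.24 (adjusted p = 0.063, edgeR). Trbv12-1 and Trbv12-2, which lie beside them and differ at 32 of 293 bases (89.1% identity), fell with -0.49 and -0.71.

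The members without a unique window were also the most variable within groups. The pooled SD within groups of log2(CPM + 0.1) was 1.43 for Trav9n-3 and 0.99 for Trav14n-1, followed by Trav2 with 0.41 and Trav19 with 0.39, and the most variable Trbv member, Trbv30, had 0.22. Trav9n-3 was at 1.98, 1.39, 0.179 and 0.096 CPM in unstimulated untreated cells, 1.54, 0.0603, 1.08 and 1.66 CPM in unstimulated cells with PGE2, 1.33, 1.78, 1.44 and 1.75 CPM in stimulated untreated cells and 0.125, 1.24, 0.147 and 1.81 CPM in stimulated cells with PGE2. High and low samples thus occurred within 3 of the 4 groups. Its copy Trav9d-3, identical over 294 coding bases of the V exon, was at 0 to 0.0698 CPM. Trav14n-1 was between 0.465 and 3.95 CPM, and its copy Trav14d-1, identical over 312 bases, was at 0 to 0.0698 CPM. With both copies this low in every sample, the summed deposited counts of a member and its copy varied as the member did. Whether reads that match both were counted was not given, and the cause of the spread was not tested.

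**Figure D5:**
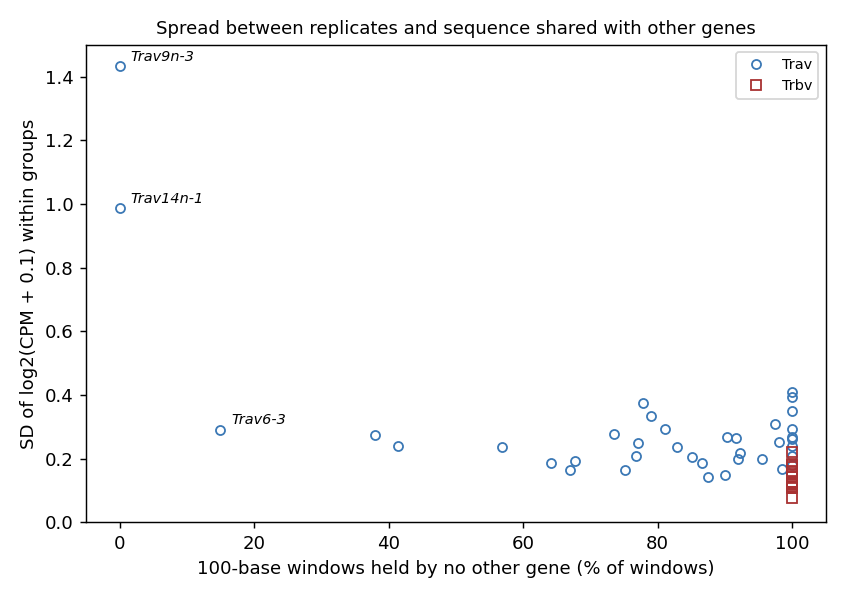
Within-group SD of log2(CPM + 0.1) of each of the 57 members against the percentage of its 100-base windows that no transcript of another gene holds. Trav9n-3 (1.43) and Trav14n-1 (0.99), at 0% unique windows, stand above all others, and the 19 Trbv members lie at 100%.

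Of the 6 Trav14 members, Trav14-3 rose with stimulation under PGE2, from 1.61, 1.84, 1.26 and 1.22 CPM to 2.22, 2.63, 1.70 and 2.15 CPM (log2 fold change 0.71, SE 0.22, adjusted p = 0.0162, edgeR). Trav14-1, Trav14-2, Trav14n-1, Trav14n-3 and Trav14d-3-dv8 did not pass in any pairwise comparison, and Trav14n-3 had 0.53 in the same comparison (adjusted p = 0.0515, edgeR). The 3 members with a name for the delta locus, Trav16d-dv11, Trav14d-3-dv8 and Trav4-4-dv10, had 2.01%, 1.5% and 1.62% of Trav usage on average, and of these only Trav4-4-dv10 was called, with stimulation under PGE2. Near the limit of the rule, Trav7-6 (1.00 CPM) and Trav8d-1 (1.07 CPM) were just inside and Trav7d-4 (0.979 CPM) and Trav6-7-dv9 (0.972 CPM) just outside. Trav11 and Trav11d, which encode the invariant alpha chain of NKT cells, were at most 0.107 and 0.0759 CPM.

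The other genes of the receptor were taken from a list. The CD3 chains fell with stimulation, Cd3e with log2 fold changes of -0.52 without and -0.44 with PGE2, Cd3g with -0.44 and -0.26, Cd3d with -0.41 and -0.29 and Cd247 with -0.33 and -0.32, all past the threshold. Dntt, the enzyme that adds untemplated bases at the joins of V, D and J segments, was higher with PGE2 in unstimulated cells (0.65, adjusted p = 0.023, edgeR) and lower with stimulation (-0.88 without and -1.46 with PGE2). Rag1 and Rag2, which cut the segments for joining, and Ptcra, the partner of the beta chain in the thymus, were too low to be tested.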

How the data were processed

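RNA was measured in 16 samples, 4 in each of 4 groups taken from the sample labels. Per the study's methods and the submitters' processing notes, poly(A)-selected NEBNext Ultra libraries were sequenced in paired-end mode on a NovaSeq, aligned to GRCm38 (mm10) with HISAT2 2.0.5 and counted with featureCounts 1.5.0-p3. The authors deposited whole-number counts per gene without normalization. The annotation release, the use of strand and the treatment of reads that match several genes were not given in the sources used here. A deposited FPKM table was not used.

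Counts were tested with edgeR 4.0.16 (filterByExpr with a minimum count of 10, TMM, glmQLFit and glmQLFTest, 2-sided) in R 4.3.3, with limma 3.58.1. Each pairwise comparison used its 8 samples without a covariate, and the interaction all 16. P-values were adjusted over all genes tested by Benjamini-Hochberg, and a call is an adjusted p below 0.05. The SE is the log2 fold change divided by the square root of F. DESeq2 1.42.0, other scalings, filters, a replicate block, a fit of all 16 samples and fits without single replicates were alternatives, and those without replicate number 3 in every group were added after seeing the data. The depth was 22678254 to 42950763 counts per sample, so counting error weighs most on members near 1 CPM.

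Usage is the count divided by the deposited gene length, as a percentage of all V rows of the locus, and gets no test, like sums and ratios. Sequences, exons and 100-base windows were taken from GENCODE M21 transcripts on GRCm38.

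The main fits left the replicate number out, and their p-values and SEs ignore any pairing. Fits with the number as a block were run beside them. The numbers were taken to pair samples where same-numbered samples deviated together from their group means in every pair. The correlations over all genes tested were 0.150 to 0.477 for PGE2 in unstimulated cells and 0.291 to 0.496 for PGE2 in stimulated cells. For stimulation without PGE2 they were 0.119 to 0.407. By this rule the numbers were taken to pair the samples in these comparisons. Samples with different numbers had correlations of -0.405 to 0.152, -0.468 to 0.332 and -0.315 to 0.176 in the same order, so the ranges overlapped. What a number shares was not stated.

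The genes named were the 8 most used in each locus, the 3 that rose and the 3 that fell most among the calls of each pairwise comparison, all Trav14 members, Trav11 and its copy, Trbv12-1 and Trbv12-2, members with dv in the name and the 2 rows on each side of the limit, beside a list of other receptor genes. Other members are named where counts of calls needed them, after their values were seen. The members and lists were chosen with earlier results of these data known. Another marker list of the cell type check is not reported here.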

Additional observations from a re-analysis of the deposited data

Results flagged for a closer look

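Groups of 4 samples were examined for the named members and for the summed Trav and Trbv V rows, 116 groups in all. In each, the highest or lowest sample was compared with the others by Dixon's ratio. This is the gap to the nearest sample over the whole range, set against its 95% limit for 4 samples. Chance alone marks about 1 in 20 such groups, and 5 of 116 were marked. In stimulated cells with PGE2, Trbv13-2 was at 42.0 CPM in replicate 4 and at 31.5 to 32.5 CPM in the others, a ratio of 0.905. Without this replicate, its log2 fold change for PGE2 in stimulated cells was 0.24 and did not pass the threshold.

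The other 4 were Trav14 genes in stimulated untreated cells. Trav14-2 was at 3.67 CPM in replicate 4 and 2.65 to 2.78 CPM in the others (ratio 0.880), Trav14-1 was at 2.49 CPM in replicate 4 and 1.47 to 1.52 CPM in the others (0.956), and Trav14n-1 was at 3.67 CPM in replicate 4 and 0.480 to 0.911 CPM in the others (0.865). Trav14-3 was at 1.95 CPM in replicate 2 and 1.47 to 1.54 CPM in the others (0.857). None of these 4 genes was called in stimulation without PGE2 or in PGE2 in stimulated cells.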

How the results depend on the processing

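Counts of called members moved most for PGE2. In unstimulated cells, 1 call became 10 with the replicate block, 2 in a fit of all 16 samples and 1 to 3 without single replicates. In stimulated cells, 3 calls became 11 with the replicate block, 5 in a fit of all 16 samples, 0 without the filter on low counts, 0 without number 3 in both groups and 0 to 3 without single replicates. The block gave 20 calls for stimulation without PGE2 (17 shared of 17) and 23 with PGE2 (21 shared of 22), where 2 of 4 same-numbered pairs correlated above 0.1, and none for the interaction. No share of all genes called with the block or in another alternative setting stands beside these counts, as it was not counted. Without single replicates there were 14 to 18 and 15 to 23 calls for stimulation without and with PGE2. With number 3 left out of every group, stimulation without PGE2 lowered 13 Trbv members and raised 1 Trav member. Stimulation with PGE2 then lowered 10 Trbv members and raised 6 Trav members. For PGE2 in unstimulated cells, 1 Trbv member was called. With a fold change of at least 2 no member was called in any comparison, so this rule gave 0 in place of 1, 3, 17 and 22. The interaction gave 0 under every setting run. Of the log2 fold changes of the 15 named results, 216 alternative values kept direction and call, 39 kept the direction and lost the call, and none turned.

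The log2 ratios of the V sums moved with the scaling. For stimulation without PGE2, Trbv changed from -0.64 to -0.47 (TMM), -0.45 (RLE) and -0.57 (upper quartile), and Trav from -0.09 to 0.071 (TMM), 0.091 (RLE) and 0.26 (J genes in place of V genes). For stimulation with PGE2, Trbv changed from -0.52 to -0.38 (TMM and RLE) and Trav from 0.24 to 0.37 (TMM) and 0.38 (RLE). For PGE2 in unstimulated cells, the J genes gave 0.22 for Trbv (V genes 0.13) and 0.049 for Trav (V genes -0.21), and for PGE2 in stimulated cells RLE gave 0.18 for Trbv (0.25). Without single replicates, the Trbv ratios were 0.10 to 0.16, 0.21 to 0.27, -0.66 to -0.62 and -0.55 to -0.49, and the Trav ratios -0.25 to -0.18, 0.08 to 0.16, -0.13 to -0.05 and 0.21 to 0.27, for PGE2 in unstimulated cells, PGE2 in stimulated cells, and stimulation without and with PGE2. The cause of these shifts was not tested.

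Without division by gene length, Trbv13-2 had 12.7%, 14.4%, 10.31% and 11.3% of Trbv counts in the unstimulated untreated, unstimulated PGE2, stimulated untreated and stimulated PGE2 groups, and Trav16n had 6.32% in the unstimulated untreated and 6.73% in the stimulated untreated group. Over the members alone, Trav16n had 7.61%, 7.07%, 7.89% and 7.38%, since fewer genes enter the sum. A value without genes that share windows was not run for Trav16n, which shares windows itself. Samples with the same number were somewhat alike in Trbv usage (mean correlation 0.226 in 24 pairs, against -0.074 in 72 pairs with different numbers) and not in Trav usage (-0.062 and 0.023). With a limit of 5 CPM, 17 Trbv genes gave 0.312, and the 2 Trav genes left are too few.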

Other observations

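The J segments of both loci were not used in the comparisons of members. The 13 Trbj rows summed to 41.2 ± 3.65 CPM in unstimulated untreated cells, 48.0 ± 4.35 CPM with PGE2, 26.1 ± 3.97 CPM in stimulated untreated cells and 32.4 ± 4.45 CPM in stimulated cells with PGE2 (SD, n = 4 each). As in the Trbv V rows, all stimulated samples were below all unstimulated ones within each PGE2 condition. The 51 Traj rows summed to 6.54 ± 0.399, 6.76 ± 0.621, 7.84 ± 0.983 and 8.12 ± 1.38 CPM in the same order, and the groups overlapped in every pairwise comparison.

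The V rows of the gamma and delta loci were all below a mean of 1 CPM. The highest were Trgv2, at 0.219 to 1.25 CPM, and Trdv1, at 0.152 to 0.917 CPM. The delta constant region Trdc was at 1.18 to 2.60 CPM in all 16 samples.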
